A study of Rattus norvegicus with 19 samples.

Results

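Cytochrome P450 genes of rat liver that belong to neither the CYP3A nor the CYP2C subfamily were followed after treatment with pregnenolone-16α-carbonitrile (PCN), to ask how specific P450 induction was. They were Cyp1a1, Cyp1a2, Cyp2a1, Cyp2a2, Cyp2b3, Cyp2d2, Cyp2d3, Cyp2e1, Cyp2j4 and Cyp4a1. They were read from every probe set that the platform annotation assigns to exactly 1 of these genes, 10 of the 15923 probe sets of a first Affymetrix array type, 1 for each gene. None of the 15333 probe sets of the second array type met the rule, so all member values are from the first, and the gene lists further on use the second only for genes not tested on the first. A further probe set of the first array type lists Cyp2a1 and Cyp2a2 together and was left out by the rule.

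PCN-treated adult rats had received 100 mg/kg PCN once, intraperitoneally, and control rats had received corn oil by the same route. Both groups had fasted overnight, and livers were taken 8 h after the dose. The first array type had 5 PCN and 5 corn oil arrays, labelled as biological replicates, and the second had 5 PCN and 4 corn oil arrays. The study set out to learn whether PCN activates genes other than those of drug metabolism. The labels used here give neither sex nor strain and do not say whether an array held 1 animal or a pool. If each array held a separate pool, the p-values would measure spread between pools. If the replicates were repeats of the same RNA, they would measure technical spread alone.

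Cytochromes P450 are heme enzymes of the endoplasmic reticulum that insert an oxygen atom into drugs, steroids, fatty acids and other lipophilic compounds, with electrons supplied by the flavoprotein P450 reductase. Their induction is divided among ligand-activated receptors. The pregnane X receptor (PXR, gene Nr1i2), which PCN activates in rodents, drives the CYP3A genes, the constitutive androstane receptor (Nr1i3) drives CYP2B genes, the aryl hydrocarbon receptor (Ahr) drives CYP1A genes, and the peroxisome proliferator-activated receptor α (Ppara) drives CYP4A genes. Other hepatic P450s, among them CYP2D and CYP2E1, are known for high constitutive levels and little induction at the level of transcription.

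The promoters of an induced P450 and of 3 members are shown because a PXR element can be read in the first and looked for in the others. Each window is the 250 bases upstream of the transcript start, taken from RefSeq's table for the rat build GRCr8, printed 5′ to 3′ on the strand of the gene. Capitals mark exact matches to TGAACT, a half-site bound by PXR with its partner, on either strand. Other forms of the half-site were not searched and may stand unmarked in these windows. The windows are Cyp3a23-3a1 at chr12:14398804-14399053 (minus strand), Cyp2j4 at chr5:116323043-116323292 (minus strand), Cyp2e1 at chr1:205269717-205269966 (plus strand) and Cyp1a2 at chr8:66978150-66978399 (minus strand).
Cyp3a23-3a1: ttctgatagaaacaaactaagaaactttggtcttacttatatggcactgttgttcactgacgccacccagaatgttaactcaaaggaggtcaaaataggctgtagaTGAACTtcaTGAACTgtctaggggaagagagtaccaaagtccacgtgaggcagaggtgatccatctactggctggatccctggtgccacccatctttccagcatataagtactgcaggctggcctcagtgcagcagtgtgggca
Cyp2j4: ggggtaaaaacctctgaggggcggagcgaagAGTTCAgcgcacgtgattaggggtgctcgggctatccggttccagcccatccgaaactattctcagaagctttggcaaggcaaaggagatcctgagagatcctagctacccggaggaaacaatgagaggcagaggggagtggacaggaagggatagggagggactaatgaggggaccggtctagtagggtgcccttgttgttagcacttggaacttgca
Cyp2e1: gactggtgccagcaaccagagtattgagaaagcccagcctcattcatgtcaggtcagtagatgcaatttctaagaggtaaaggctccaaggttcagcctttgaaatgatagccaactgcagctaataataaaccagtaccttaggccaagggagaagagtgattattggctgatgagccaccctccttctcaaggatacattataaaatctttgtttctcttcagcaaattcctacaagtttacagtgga
Cyp1a2: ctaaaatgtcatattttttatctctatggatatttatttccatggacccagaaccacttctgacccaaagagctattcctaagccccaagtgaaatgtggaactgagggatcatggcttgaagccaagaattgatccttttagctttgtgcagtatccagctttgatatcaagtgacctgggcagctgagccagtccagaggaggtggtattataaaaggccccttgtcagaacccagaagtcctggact

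The Cyp3a23-3a1 window holds 2 marked half-sites in the same direction with 3 bases between them, the direct repeat TGAACTNNNTGAACT. It begins 144 bases before the transcript start. On both strands this repeat was found in 2 of 33469 promoter windows (0.00598%), those of Cyp3a23-3a1 and Cyp3a2. The table held windows for 7 of the 10 members, all but Cyp1a1, Cyp2a2 and Cyp4a1, and none of the 7 contained the repeat. TGAACT alone, which 12.2% of all windows contain and which is also part of the direct repeat, was present in Cyp2j4 only among these 7. There it stood as its reverse complement AGTTCA, 219 bases before the start. GCGTG, the core bound by the aryl hydrocarbon receptor, was on either strand in 25.9% of windows and in none of these 7. The Cyp2j4 window overlaps the 5′ end of the annotated Cyp2j4 gene, so it reaches past another annotated start. A match or its absence describes these letters in this window only.

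Cyp3a23-3a1, the classical target of PXR in rat liver, was taken as the reference for an induced P450. Other P450s with larger changes are given further on. All values are log2 expression as deposited, and a change is the PCN mean minus the corn oil mean. Cyp3a23-3a1 (probe set 1387118_at) read 13.81, 13.82, 13.82, 13.72 and 13.80 on the PCN arrays, against 12.75, 13.07, 13.23, 13.36 and 13.33 on the corn oil arrays. Every PCN array was above every corn oil array. The SD was 0.04 in the PCN group and 0.25 in the corn oil group. Whether the PCN readings were compressed near the top of the scale was not tested. The change was 0.65 ± 0.10 (SE, 95% interval 0.43 to 0.87), or 1.57-fold, with an adjusted p of 0.00543 by limma's moderated test.

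No member P450 passed that test. Of the 10 members, 9 were bright enough to be tested and 0 were called at an adjusted p below 0.05 (limma, Benjamini-Hochberg over 11106 probe sets). An unadjusted limma p below 0.05 was found for 2 of the 9. It was found for 1964 of all 11106 tested probe sets, so this count is near the background. The background share of called probe sets was 3.25%, with 2.31% higher and 0.945% lower after PCN, so 0 of 9 is near the background and is not a result particular to these P450s. The median change of the 9 tested members was -0.05, beside 0.00 over all tested probe sets, with 2 members positive and 7 negative. In all 10 members, the untested Cyp2a2 included, the PCN and corn oil arrays overlapped. Groups without overlap made up 6.04% of all tested probe sets, so this too is near the background. All 9 intervals lay inside 1 log2 unit in either direction, the lowest bound being -0.76 and the highest 0.90.

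**Figure D1:**
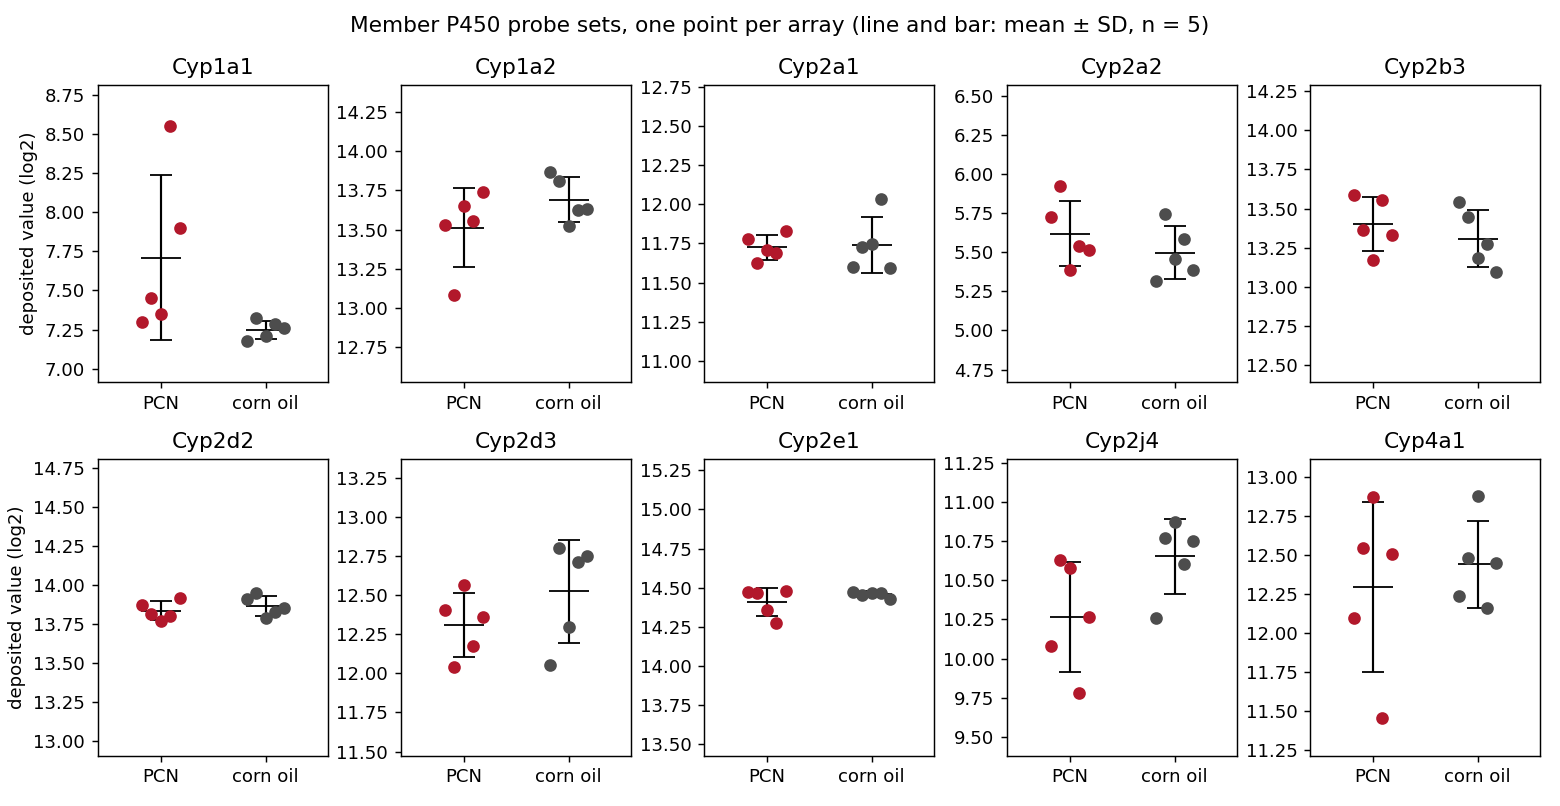
Deposited log2 values of the 10 member P450s on the first array type. Each point is 1 array, with 5 PCN arrays left of 5 corn oil arrays in each panel. The line and bar show the group mean ± SD. The groups overlap in all 10 members.

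The CYP1A genes, on chromosome 8, are the textbook targets of the aryl hydrocarbon receptor. Cyp1a1, which oxidizes polycyclic aromatic hydrocarbons and is nearly silent in uninduced liver, gave the only member change with an interval above 0. Its probe set (1370269_at) read 7.30, 7.45, 7.35, 8.55 and 7.90 in PCN livers, against 7.18, 7.32, 7.21, 7.28 and 7.26 in corn oil livers. Replicates 4 and 5 of the PCN group stood above every corn oil array by a wide margin, PCN replicates 2 and 3 stood just above them, and PCN replicate 1 fell inside the corn oil range. The change was 0.46 ± 0.20 (95% interval 0.02 to 0.90), 1.37-fold, with an unadjusted p of 0.0413 and an adjusted p of 0.259 by limma. The SD was 0.53 in the PCN group and 0.06 in the corn oil group (n = 5 each). The corn oil mean of 7.25 was not far above 6.67, the filter value for dim probe sets. Whether changes are compressed at this brightness was not tested. Without PCN replicate 4 the change was 0.25, with an adjusted p of 0.367.

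Cyp1a2, abundant in uninduced liver and the main caffeine demethylase, did not follow Cyp1a1 in sign. Its probe set (1387243_at) read 13.53, 13.08, 13.65, 13.56 and 13.74 in PCN livers, against 13.87, 13.81, 13.52, 13.63 and 13.63 in corn oil livers. The lowest array was PCN replicate 2 and the highest was corn oil replicate 1, with the remaining arrays mixed. The change was -0.18 ± 0.11 (95% interval -0.43 to 0.07, limma adjusted p = 0.455). Leaving out PCN replicate 2 brought it to -0.07.

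The CYP2A genes lie on chromosome 1. Cyp2a1 encodes a steroid 7α-hydroxylase, and its probe set (1387511_at) read 11.78, 11.62, 11.71, 11.69 and 11.83 in PCN livers, against 11.60, 11.73, 11.74, 12.04 and 11.59 in corn oil livers. All PCN arrays fell within the corn oil range, whose top was corn oil replicate 4. The change was -0.02 ± 0.09 (95% interval -0.22 to 0.19, limma adjusted p = 0.948), the smallest in size among the tested members. Leaving out PCN replicate 2 made it 0.01, and leaving out corn oil replicate 4 made it 0.06.

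Cyp2a2, a steroid hydroxylase typical of adult male rat liver, was the member left out by the filter on dim probe sets, which stood at 6.67. Its probe set (1369424_at) read 5.72, 5.93, 5.39, 5.54 and 5.52 in PCN livers, against 5.31, 5.74, 5.45, 5.59 and 5.39 in corn oil livers. Every one of these 10 readings was below the filter, and the groups overlapped. Tested without the filter, the change was 0.12 ± 0.10 (limma adjusted p = 0.645). At this brightness a change of Cyp2a2 may not be detectable. The labels do not give the sex of the animals, and its part in these low readings was not tested.

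Cyp2b3, also on chromosome 1, belongs to the CYP2B subfamily but is known in rat as a member that phenobarbital does not induce. The probe set (1370475_at) read 13.59, 13.36, 13.17, 13.56 and 13.33 in PCN livers, against 13.54, 13.45, 13.18, 13.28 and 13.09 in corn oil livers. High and low arrays occurred in both groups. A change of 0.09 ± 0.10 was fitted (95% interval -0.13 to 0.31, limma adjusted p = 0.675). With 1 array left out it lay between 0.04, when that was corn oil replicate 5, and 0.15, when it was corn oil replicate 1. Cyp2b1 and Cyp2b2, the inducible rat CYP2B genes, had no probe set of their own and are not reported here.

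Cyp2d2 and Cyp2d3 are neighbouring genes on chromosome 7 whose subfamily metabolizes many basic drugs, debrisoquine among them. Cyp2d2 (1367917_at) read 13.87, 13.81, 13.77, 13.80 and 13.92 in PCN livers, against 13.91, 13.94, 13.79, 13.83 and 13.85 in corn oil livers. The groups overlapped across nearly their whole range. Both had an SD of 0.06, and the change of -0.03 ± 0.05 had a 95% interval of -0.14 to 0.08 (limma adjusted p = 0.792). Single arrays moved it as far as -0.05 (PCN replicate 5 left out) and -0.01 (corn oil replicate 2 left out). This narrow interval leaves room for a change between 1.06-fold higher and a PCN level of 0.909 times that in corn oil.

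Cyp2d3 (1370496_at) varied more. It read 12.41, 12.04, 12.56, 12.17 and 12.36 in PCN livers, against 12.06, 12.80, 12.30, 12.72 and 12.75 in corn oil livers. Corn oil replicates 2, 4 and 5 were above all PCN arrays, while corn oil replicates 1 and 3 fell among them. The change was -0.22 ± 0.15 (95% interval -0.55 to 0.11, limma adjusted p = 0.50), and it moved to -0.33 when corn oil replicate 1 was left out and to -0.15 when corn oil replicate 2 was. Probe sets of near-identical P450 copies may share target RNA, and this was not tested.

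Cyp2e1, the ethanol-inducible P450, is regulated largely at the level of protein stability and rises on fasting, a state that both groups shared. Its probe set (1367871_at, chromosome 1) read 14.47, 14.46, 14.35, 14.27 and 14.48 in PCN livers, against 14.47, 14.45, 14.47, 14.47 and 14.43 in corn oil livers. PCN replicates 3 and 4 were below every corn oil array, and the other 3 PCN arrays lay at or just beyond the corn oil readings. The change was -0.05 ± 0.05 (95% interval -0.15 to 0.05, limma adjusted p = 0.632). Without PCN replicate 4 it shrank to -0.015.

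Readings near the top of the scale were examined because most members are bright. Of 46 tested probe sets with a mean of at least 14, Cyp2e1 among them, 0 were called and the largest positive change was 0.35. Of 559 with a mean of at least 12, which include 6 members, 22 were called higher and 9 lower after PCN, or 5.55%. Calls were therefore made in the range that holds the other 5 of these members, and none was made in the top range that holds Cyp2e1. Calls in a pooled range do not show that a rise of each member in it could be measured. Whether the scale is compressed in either range was not tested.

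Cyp2j4, on chromosome 5, encodes an epoxygenase of arachidonic acid known from rat liver and intestine. It had the largest negative change among the members. The probe set (1387296_at) read 10.08, 10.63, 10.58, 9.78 and 10.26 in PCN livers, against 10.26, 10.77, 10.88, 10.60 and 10.75 in corn oil livers. PCN replicates 1 and 4 were the lowest of the 10 arrays, but corn oil replicate 1 was as low as PCN replicate 5. The group means were 10.27 ± 0.35 after PCN and 10.65 ± 0.24 after corn oil (SD, n = 5 each). The change was -0.39 ± 0.17 (95% interval -0.76 to -0.01), 1.31-fold lower in the PCN group, with an unadjusted p of 0.0430 and an adjusted p of 0.265 by limma. Without PCN replicate 4 it was -0.27.

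Cyp4a1, a fatty acid ω-hydroxylase on chromosome 5 and a standard target of the peroxisome proliferator-activated receptor α, had the widest spread. The transcript that its probe set (1368934_at) was designed from is now assigned to Cyp4b1 in RefSeq, so these readings may be of Cyp4b1. They were 12.10, 12.55, 12.87, 11.46 and 12.50 in PCN livers, against 12.24, 12.48, 12.88, 12.16 and 12.44 in corn oil livers. PCN replicate 4 was the lowest array by a wide margin, and the other readings of both groups were interleaved. The change was -0.15 ± 0.23 (95% interval -0.64 to 0.35, limma adjusted p = 0.783), and without PCN replicate 4 it turned to 0.06. A separate Cyp4b1 probe set changed by -0.13 ± 0.09 (limma adjusted p = 0.492). It was dimmer, with means of 9.53 after PCN and 9.66 after corn oil, against 12.29 and 12.44 for 1368934_at. Which gene 1368934_at reads was not tested.

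**Figure D2:**
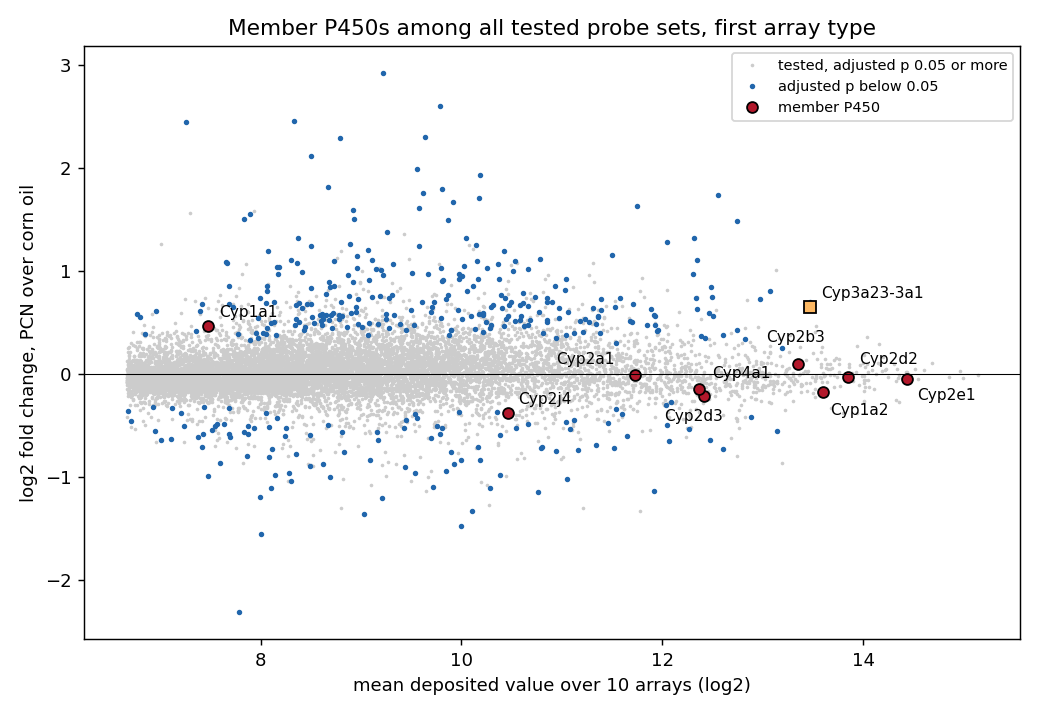
Log2 fold change, PCN over corn oil, against the mean deposited log2 value over 10 arrays, for all 11106 tested probe sets of the first array type. Blue points passed the threshold, red circles are the 9 tested members and the square is Cyp3a23-3a1. No red circle lies among the called probe sets, and Cyp3a23-3a1 stands above members of similar brightness.

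Single arrays weighed differently on the members. PCN replicate 4 was the highest or lowest of the 10 arrays for 4 of the 10 members, highest for Cyp1a1 and lowest for Cyp2e1, Cyp2j4 and Cyp4a1, while every other array was extreme for 1 to 3. Cyp3a23-3a1 was also lowest among the PCN arrays in this replicate. It had the widest interquartile range of values over all probe sets, 3.08, against 2.69 to 2.97 on the other 9 arrays. The part of this spread in the member changes was not tested beyond leaving the array out.

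**Figure D3:**
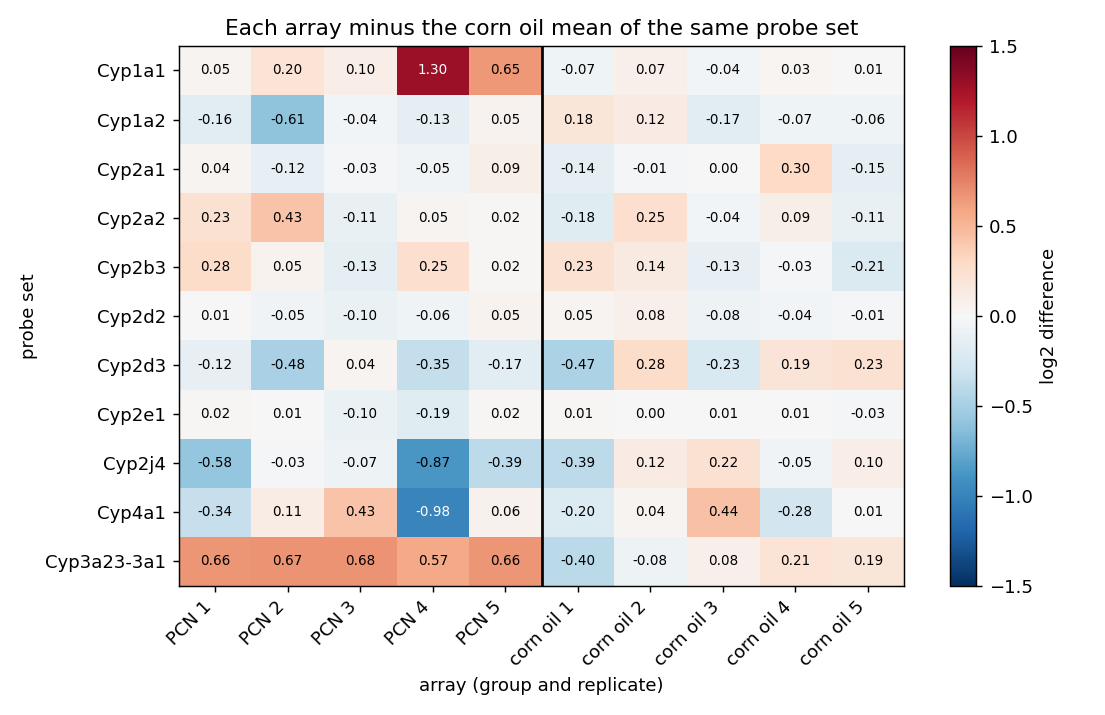
Deviation of each array from the corn oil mean (log2) for the 10 members and Cyp3a23-3a1, with PCN arrays left of corn oil arrays. The largest deviation among the members is 1.30, for Cyp1a1 on PCN replicate 4, and Cyp3a23-3a1 is at least 0.57 on every PCN array.

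The member changes were then set directly against the change of Cyp3a23-3a1, since a missed threshold alone does not show that 2 changes differ. Subtracting the Cyp3a23-3a1 value on each array and repeating the fit gave a difference past the threshold for 8 of the 9 tested members, all in the direction of a smaller change than that of Cyp3a23-3a1. The background for this comparison was 84.5% of probe sets, 84.1% with a smaller change and 0.351% with a larger one, so the share is not particular to P450s. All these differences share the same 10 Cyp3a23-3a1 readings. The largest were those of Cyp2j4 (-1.03 ± 0.18, SE), Cyp2d3 (-0.86 ± 0.16) and Cyp1a2 (-0.83 ± 0.17), with limma adjusted p-values of 0.000216, 0.000235 and 0.000577. The smallest past the threshold was that of Cyp2b3, at -0.55 ± 0.18 (limma adjusted p = 0.009). Cyp4a1, Cyp2e1, Cyp2d2 and Cyp2a1 lay between, from -0.79 to -0.66.

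Cyp1a1 was the exception. Its change fell short of that of Cyp3a23-3a1 by 0.19 ± 0.21 (difference -0.19, 95% interval -0.64 to 0.26, limma adjusted p = 0.403), so that an equal change lay within the interval. Without PCN replicate 4 the difference was -0.42, with an adjusted p of 0.0240 by limma. Against the mean of 4 CYP3A probe sets it was -0.46 (limma adjusted p = 0.0191). That mean includes Cyp3a2, whose corn oil mean of 6.51 was under the filter value and whose PCN mean was 8.07. Against the other 3 CYP3A probe sets the difference was -0.25 and missed the threshold (limma adjusted p = 0.285). The probe sets most like Cyp1a1 in pattern over the 10 arrays were those of Eprs1, a glutamyl-prolyl-tRNA synthetase (r = 0.96), Copb2, a subunit of the vesicle coat (r = 0.94), and Mmadhc, a protein of cobalamin handling (r = 0.93). They share the arrays, and without PCN replicate 4 the 3 correlations were 0.79, 0.82 and 0.90.

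Other P450 groups, whose lists were drawn up with earlier results of these data known, included some that rose. Of 4 CYP3A genes tested, 2 rose. Cyp3a18, a steroid hydroxylase, rose by 1.31 ± 0.19 log2, or 2.49-fold (limma adjusted p = 0.00384), and Cyp3a23-3a1 as above. Cyp3a2, the other gene with the direct repeat, had a change of 1.56 ± 0.42 that missed the threshold (limma adjusted p = 0.0663), and Cyp3a9 had 0.17 (limma adjusted p = 0.696). The median of the CYP3A list was 0.98. Of 6 CYP2C genes tested 1 rose, Cyp2c22, by 1.48 ± 0.25 (limma adjusted p = 0.00803), and the list's median was 0.09.

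A list of 16 other tested genes of families CYP1 to CYP4 had 0 higher and 1 lower, with a median of -0.15 and 3 positive changes. The called gene was Cyp2f4, a lung-type naphthalene oxidase, at -0.37 ± 0.09 (limma adjusted p = 0.0377). This call was lost whichever single array was left out, the largest adjusted p then being 0.0929. Among 14 tested P450s of sterol, steroid and retinoid metabolism 1 rose, Cyp26a1, the retinoic acid hydroxylase, by 2.45 ± 0.24 (limma adjusted p = 0.000379). The median of that list was -0.07.

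**Figure D4:**
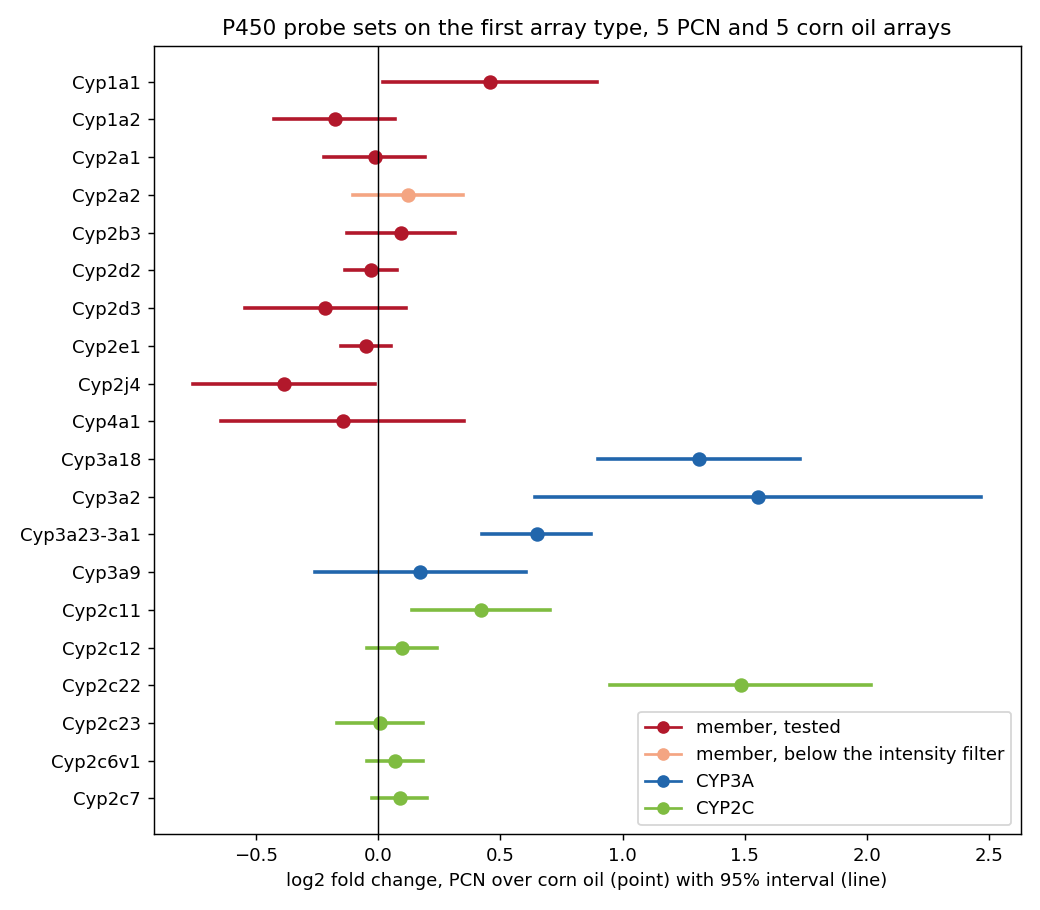
Log2 fold change, PCN over corn oil, with 95% intervals, for the members (red, with the dim Cyp2a2 in pale red from the fit without the filter) and for the tested CYP3A (blue) and CYP2C (green) genes. The intervals of the 9 tested members lie between -0.76 and 0.90, and 8 of them lie below the Cyp3a23-3a1 estimate of 0.65.

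The genes that supply P450s with electrons and heme included called ones. Of 12 tested, 2 rose. Por, the P450 reductase that serves every microsomal P450, rose by 1.27 ± 0.14 (limma adjusted p = 0.000751), and Alas1, the rate-limiting enzyme of hepatic heme synthesis, rose by 1.74 ± 0.14 (limma adjusted p = 0.000119). The median of these 12 was 0.15.

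Genes of the receptors that govern the members gave few calls. Among 24 tested receptors and liver transcription factors 0 rose and 1 fell, Rxrg, a retinoid X receptor, at -0.88 ± 0.18 (limma adjusted p = 0.0212). That call was lost in 4 of the fits that leave out 1 array, namely PCN replicate 1 or 3 or corn oil replicate 4 or 5, with adjusted p-values up to 0.0569. The changes of Nr1i2 (0.11 ± 0.20), Nr1i3 (0.33 ± 0.25), Ahr (0.27 ± 0.36) and Ppara (0.27 ± 0.25) had limma adjusted p-values of 0.815, 0.546, 0.735 and 0.615. Those of Nr1i2 and Ahr changed sign without corn oil replicate 2.

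Other targets of these receptors were read in the same way. Of 5 tested genes of the aryl hydrocarbon receptor battery 0 were called and 0 had an unadjusted p below 0.05. Nqo1, a quinone reductase of that battery, had a change of 0.51 (limma adjusted p = 0.336), and Ahrr, the receptor's repressor, had -0.14 on the second array type (limma adjusted p = 0.256), where 5.4% of probe sets were called, 3.76% higher and 1.64% lower. Of 25 tested targets of the peroxisome proliferator-activated receptor α 0 were called, with 3 at an unadjusted p below 0.05 and a median of -0.04. The 2 with the smallest p were Acadm, a dehydrogenase of fatty acid oxidation (-0.29, limma adjusted p = 0.188), and Ehhadh, the peroxisomal bifunctional enzyme (-0.56, limma adjusted p = 0.218).

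Several members are known to be highest in hepatocytes around the central vein, so position markers were measured as well. Of 12 tested pericentral genes 1 rose, Gstm1, a glutathione transferase, by 0.69 ± 0.09 (limma adjusted p = 0.00193). Of 14 tested periportal genes 1 fell, Hal, the histidine lyase, at -0.65 ± 0.15 (limma adjusted p = 0.0356), a call lost in 7 of the fits that leave out 1 array, without PCN replicate 1, 2 or 4 or corn oil replicate 1, 3, 4 or 5, with adjusted p-values up to 0.0949. The 9 hepatocyte markers tested, averaged per array, ranged between 14.28 and 14.42 in PCN livers and between 14.30 and 14.38 in corn oil livers. In the lists for hepatocytes, Kupffer cells, stellate cells, endothelium, cholangiocytes, red cells, lymphocytes and neutrophils 0 genes were called (limma), while 9 of their 47 tested genes had an unadjusted p below 0.05. Over all tested probe sets, 1964 of 11106 on the first array type and 2919 of 10693 on the second had such a p.

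The 2 genes of smallest p in each marker list were read beside the members. Hepatocyte Fgb (0.29) and Hpx (0.09) and Kupffer cell Cd163 (0.40) and C1qb (0.30) had positive changes, with limma adjusted p-values of 0.149, 0.340, 0.136 and 0.331. The stellate cell collagens Col1a1 (0.41) and Col3a1 (0.43) were also positive, with limma adjusted p-values of 0.261 and 0.0824. These genes do not stand for their whole lists. Positive changes were found in 4 of 9 hepatocyte, 7 of 9 Kupffer cell and 6 of 9 stellate cell genes tested. The list medians were -0.01, 0.10 and 0.11. The red cell genes Hbb, a globin, and Alas2, of erythroid heme synthesis, had changes of -0.39 and -0.59 (limma adjusted p = 0.110 and 0.145). The 3 red cell genes tested, averaged per array, ranged between 10.22 and 10.90 in PCN livers and between 10.71 and 11.00 in corn oil livers. Of the remaining lists, endothelial Tek (0.21) and Vwf (-0.12), cholangiocyte Epcam (-0.07) and Cftr (-0.11), lymphocyte Cd3e (-0.15) and Cd8a (-0.15), and neutrophil S100a9 (0.58) and Camp (-0.09) had limma adjusted p-values between 0.147 and 0.834. Calls appeared for Cd163 without PCN replicate 5 (limma adjusted p = 0.0367) and for Col3a1 without corn oil replicate 2 (limma adjusted p = 0.0459). Without PCN replicate 3 they appeared for Hbb and Alas2 (limma adjusted p = 0.0389 and 0.0315). Cd163, Tek, Cftr, Cd3e, Cd8a and Camp were read on the second array type. Leaving out PCN replicate 5 there raised the calls over all probe sets from 577 to 1477. The part of these marker genes in the member values was not tested. In whole tissue, fewer cells of a type and less RNA per cell cannot be told apart.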

How the data were processed

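The authors deposited 1 table of log2 values for each array type. The submitters' processing notes name MAS5, and how the values were summarized and normalized is not given in the sources used here. Base 2 was inferred from their range, 4.31 to 15.2 on the first array type. They were analysed as deposited with limma 3.58.1 in R 4.3.3, with treatment alone in the model, an intensity trend in the variances, two-sided tests and Benjamini-Hochberg adjustment over each array type (threshold 0.05 on the adjusted p). Left out were 57 control probe sets of each type and, as too dim, those whose mean fell under the 30th percentile, which left 11106 and 10693. Intervals are at 95%. Arrays have no sequencing depth, so their number limits precision.

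The P450s described and all gene lists were chosen with earlier results of these data known. Each listed gene was read from its brightest single-gene probe set, preferring the first array type. Named were every member, up to 4 called genes of a list with the largest change, or, in a list without calls, the 2 genes of smallest p, Cyp3a23-3a1, Nr1i2, Nr1i3, Ahr, Ppara and Por, and the 3 probe sets most correlated with the member of smallest p. Cyp3a2, Cyp3a9 and Cyp4b1 were named after their values were seen. Symbols and promoters came from RefSeq (GRCr8). The alternatives were other filters, scalings and variance models, the replicate number as a block, leaving out each array, another CYP3A reference and, chosen after seeing the data, that reference without Cyp3a2 and the interquartile range of each array as a covariate. The procedure was tested on simulated data.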

Additional observations from a re-analysis of the deposited data

How the results depend on the processing

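Under every alternative run, 0 members were called. Of 197 refitted member changes 192 kept their sign and their side of the threshold, and the smallest adjusted p among them was 0.0621, for Cyp2j4 with array weights in limma. The signs that turned belonged to small changes. Cyp2a1 changed by 0.00062 with the interquartile range as a covariate and ranged between -0.0518 and 0.0588 when single arrays were left out. Cyp2d2 changed by 0.0117 with array weights, and Cyp4a1 ranged between -0.29 and 0.0643 when single arrays were left out. With array weights the change was -0.0373 for Ahr and -0.0352 for Nr1i2. When single arrays were left out, Ahr ranged between -0.14 and 0.43 and Nr1i2 between -0.0720 and 0.23. Epcam changed by 0.0470 with array weights and ranged between -0.16 and 0.0531 without single arrays, and Tek changed by -0.0685 with centring on shared probe sets. Members differing from Cyp3a23-3a1 numbered 8 or 9 throughout. The added one was Cyp1a1 in 3 settings, among them the covariate (-0.40, limma adjusted p = 0.0411), and the dim Cyp2a2 without the filter (-0.53, limma adjusted p = 0.000863), where Cyp1a1 still missed the threshold.

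The background was less stable. Against 361 called on the first array type, there were 1051 with array weights, 104 with an unmoderated test, and 154 to 447 without single arrays. The count fell to 177, 187 and 178 without PCN replicates 1, 3 and 4, and to 204, 154 and 206 without corn oil replicates 3, 4 and 5. Centring each array on the 100 probe sets that both types carry gave 214 higher and 252 lower, in place of 256 and 105. Against 577 called on the second type, there were 6493 with that centring (210 higher and 6283 lower, in place of 402 and 175, with a median change of -0.31), 1475 with array weights, 46 unmoderated, 11 with the covariate, and 84 to 1477 without single arrays. The causes were not tested. Of 801 refits of the other named genes 747 kept sign and side of the threshold, 27 lost a call, 20 gained one and 7 turned sign. Same-numbered PCN and corn oil arrays had deviations correlated between -0.30 and 0.28 on the first type and between 0.02 and 0.20 on the second. Arrays of different numbers were not compared, so these values cannot decide whether replicate numbers pair the arrays. With the replicate number as a block, calls were 239 and 203. The second array type has no member, so no member count could be recomputed there.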
